A study of Homo sapiens with 12 samples.

Results

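RNA of the human leukaemia line MV-4-11 is described here in 6 libraries, 3 from cells given HPA-12 together with crenolanib (the combination) and 3 from cells given DMSO, a solvent control. They are 6 of the 12 RNA-seq libraries of the study and were chosen by their labels. The other 6 libraries, 3 with crenolanib alone and 3 with HPA-12 alone, are used only to show where the combination differs from its components. The treated groups were sampled at 48 h, the labels give no time for DMSO, and no source used here states the doses. All groups share the same line, labelled AML, from bone marrow and with a WT genotype, so every value comes from a single line. The labels number the libraries without saying whether they came from separate cultures, so p-values rest on a spread between libraries that may be technical only.

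HPA-12, used here as the (1R,3S) stereoisomer per the labels, blocks CERT, the protein that carries ceramide from the endoplasmic reticulum (ER) to the Golgi, where it is turned into sphingomyelin. Crenolanib is an inhibitor of the receptor tyrosine kinase FLT3, which in MV-4-11 carries an activating mutation and feeds the STAT5, MAPK and PI3K pathways. The line also carries a KMT2A fusion, which keeps HOXA genes active in blood progenitors. Stress in the ER is sensed by ATF6, IRE1 and PERK, which raise chaperones such as GRP78 (gene HSPA5) and, when stress lasts, the death-associated factor CHOP (gene DDIT3). The title of the series names these proteins, and the comparison asks what both compounds did together to the transcriptome.

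The values are FPKM, fragments divided by gene length and library size, rescaled between libraries by the median ratio over 10108 genes above 0 in all 6 libraries, mitochondrially encoded genes left out. They are called rescaled FPKM below. The combination libraries stood apart before any gene was tested. The 13 mitochondrially encoded protein genes held 61.6% to 62.6% of the FPKM sum with the combination and 19.6% to 20% with DMSO (difference of means 42.4 percentage points, exact permutation test over libraries, two-sided, p = 0.1, the smallest that 3 against 3 allows). Depth, estimated from the step size of low FPKM values, was 4400000 to 5070000 reads in the combination libraries and 13575000 to 15985000 in the DMSO libraries. Between 7894 and 8049 genes were listed at 0 in a combination library, against 5137 to 5217 in a DMSO library. Combination libraries correlated with each other at 0.90 to 0.903 on the log scale across genes, and DMSO libraries at 0.996 to 0.997. A gene at a low level is therefore measured less precisely with the combination. The tests below take 1 spread per gene for both groups, so standard errors and p-values do not carry this difference.

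Of 10021 genes with at least 1 rescaled FPKM in 3 or more of the 6 libraries, 5162 (51.5%) differed between the groups in limma at an adjusted p under 0.05. Of all genes tested, 23.8% (2380) were higher with the combination and 27.8% (2782) were lower, and 14.3% (1429) and 14.1% (1410) by more than 1 log2 unit. In 65.0% of genes the 3 combination values all lay on the same side of the 3 DMSO values. The 15 most raised and 15 most lowered genes were named only if their groups did not overlap, so for them the lack of overlap is no added result. The same holds for a gene below 1 rescaled FPKM in every DMSO library. It entered the test only if all 3 combination libraries reached 1, so it could only be higher. Lists with more than 1 such gene give their count below. The median log2 fold change was -0.145, and it was -0.707 in the FPKM as deposited, where 1327 of 10217 genes were higher and 5470 lower, so that 19.5% of the called genes were higher instead of 46.1%. With FPKM sums made equal without mitochondrial genes, the median was -0.595 and the share 23.2%, while upper-quartile scaling left both at -0.146 and 46.1%. All fold changes below are log2 differences of rescaled FPKM + 1 with their standard errors, combination over DMSO unless another group is named, and this scale understates changes of low genes. A gene is said to have risen or fallen only at an adjusted p under 0.05 over all genes tested. The counts of each gene list below are to be read against the shares of all genes (23.8% higher and 27.8% lower), and counts as deposited against the much larger number of lower genes on that scale.

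**Figure D1:**
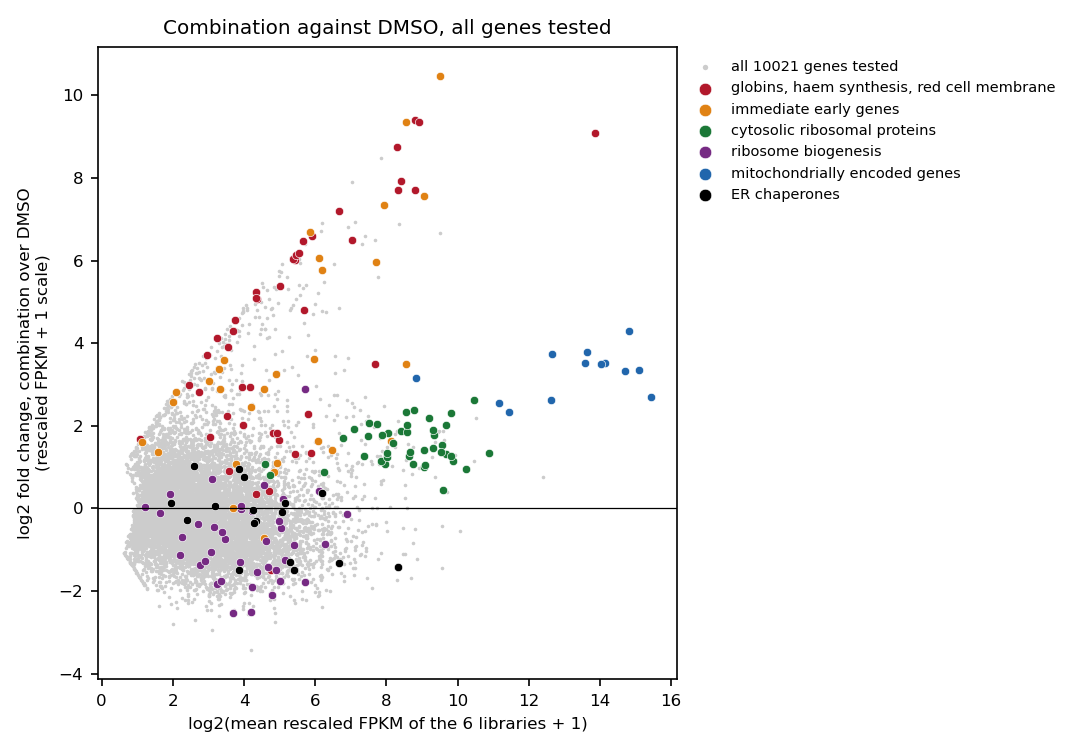
Log2 fold change of combination over DMSO (vertical axis, rescaled FPKM + 1 scale) against the log2 mean of the 6 libraries (horizontal axis) for the 10021 genes tested, 1 grey point per gene, with 6 gene lists in colour. Red cell genes and immediate early genes reach the highest fold changes, cytosolic ribosomal protein genes lie above 0 except RPS23 at -0.03, and ribosome biogenesis and ER chaperone genes lie on both sides of 0.

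Genes of the red blood cell rose by large amounts. Haemoglobin is built from globin chains and haem, and its genes are switched on late in erythroid differentiation by the factors GATA1, TAL1 and KLF1. HBB (ENSG00000244734), the beta chain of adult haemoglobin, had 29755, 29756 and 29868 rescaled FPKM in the combination libraries, against 52.7, 51.2 and 57.5 in the DMSO libraries. The lowest combination library was thus far above the highest DMSO library, and the means differed 554-fold (log2 fold change 9.09 ± 0.05, limma adjusted p = 1.5e-09). Globin genes together held 13.4% to 13.5% of the non-mitochondrial FPKM with the combination and 0.0346% to 0.0379% with DMSO. HBD, the delta chain, had 683, 587 and 625 with the combination and 2.48, 1.75 and 1.94 with DMSO. HBM, the little-used mu chain, had 913, 874 and 874 with the combination and 0.266, 0.491 and 0.184 with DMSO. AHSP, the chaperone of free alpha chains, had 996, 949 and 924 with the combination and 0.829, 0.319 and 0.318 with DMSO. Groups of these genes did not overlap, and the log2 fold changes were 7.70 ± 0.12 for HBD, 9.41 ± 0.11 for HBM and 9.35 ± 0.14 for AHSP.

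The alpha chain genes were far lower than HBB per length. HBA1 had 203, 189 and 208 rescaled FPKM with the combination and 0.348, 0.134 and 0.669 with DMSO, and HBA2 had 8.89, 15.5 and 2.64 with the combination and 0.0586, 0 and 0.135 with DMSO. HBA1 and HBA2 are near-identical copies, as are the fetal genes HBG1 and HBG2, and the counting may have split or dropped their reads, so their levels are uncertain. HBG1 had 18.7, 14.8 and 17.7 with the combination, while HBG2 had 2.35, 1.76 and 2.60 and was listed at 0 in every DMSO library. Of 11 globin and globin chaperone genes listed, 9 were tested and 9 rose, 7 of which reached 1 rescaled FPKM in the combination libraries alone and so could pass the filter only by being higher there. With 1 combination library left out, the same filter of 3 libraries kept fewer of these genes, and 2 rose. In bulk RNA, more cells of a type and more RNA per cell cannot be told apart.

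Haem is made from glycine and succinyl-CoA in a chain of enzymes that begins with ALAS2 in red cells and with ALAS1 in other cells. ALAS2 (ENSG00000158578) had 930.0, 865 and 873 rescaled FPKM with the combination and 3.57, 3.23 and 2.92 with DMSO, a log2 fold change of 7.72 ± 0.09. ALAS1 had 16.7, 17.3 and 7.32 with the combination and 38.4, 37.9 and 38.7 with DMSO (-1.5 ± 0.30, limma adjusted p = 0.0063). The erythroid enzyme rose and the general one fell, each without overlap. Further along the chain, UROD, which removes carboxyl groups from uroporphyrinogen, rose by 2.29 ± 0.09, FECH, which inserts the iron, by 2.94 ± 0.15, and the mitochondrial carrier SLC25A39 by 3.49 ± 0.08. Of 13 haem synthesis genes, all tested, 10 rose, ALAS1 fell, and CPOX and SLC25A38 did not pass (median 1.82), against 23.8% of all genes higher. CPOX passed with all 12 libraries in the fit (0.41, limma adjusted p = 0.042), and SLC25A38 without combination replicate 1 (0.77, limma adjusted p = 0.0042).

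Iron supply genes rose with them. The transferrin receptor gene TFRC had 147, 132 and 148 rescaled FPKM with the combination and 23.2, 25.0 and 24.2 with DMSO (2.51 ± 0.08). SLC25A37, mitoferrin, which carries iron into mitochondria, rose by 2.75 ± 0.08, and FTH1, the ferritin heavy chain that stores iron, by 1.18 ± 0.09. Of 12 iron genes listed, 11 were tested, 8 rose and 0 fell, against 23.8% and 27.8% of all genes (6 and 2 as deposited).

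All 22 genes of the red cell membrane and its enzymes rose, but 15 of them passed the filter only through the combination libraries, and 7 rose with 1 combination library left out. SLC4A1, the band 3 anion exchanger, had 716, 708 and 617 rescaled FPKM with the combination and 1.61, 2.19 and 1.63 with DMSO (7.92 ± 0.11). CA1, the red cell carbonic anhydrase, had 648, 609.9 and 607 with the combination and 0.488, 0.413 and 0.453 with DMSO (8.74 ± 0.09). Neither gene overlapped between the groups. EPB42 (protein 4.2 of the membrane skeleton) rose by 6.59 ± 0.12 and CA2, another carbonic anhydrase, by 6.49 ± 0.13.

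**Figure D2:**
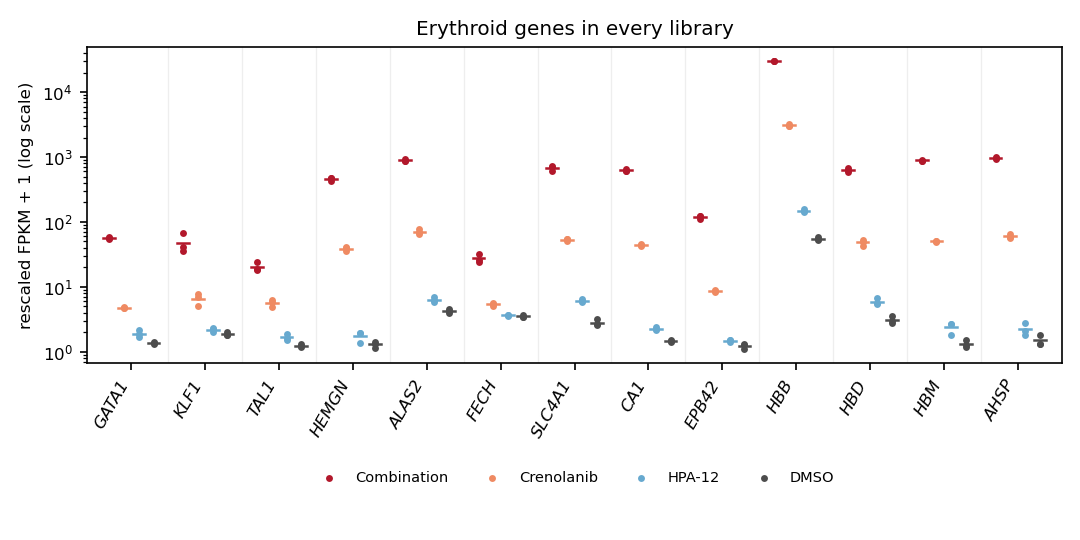
Rescaled FPKM + 1 (log scale) of 13 erythroid genes in all 12 libraries, 1 point per library and a bar at each group mean, with the combination at the left of each gene, then crenolanib, HPA-12 and DMSO. For every gene shown the 3 combination points lie above all others, and for HBB they lie at 29755 to 29868, against 51.2 to 57.5 in DMSO.

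The transcription factors that direct red cell differentiation rose at lower levels. GATA1 (ENSG00000102145) had 57.2, 56.0 and 52.7 rescaled FPKM with the combination and 0.374, 0.325 and 0.395 with DMSO (5.37 ± 0.12, limma adjusted p = 3.2e-07). KLF1, the activator of adult beta globin, had 66.8, 40.0 and 34.3 with the combination and 0.811, 0.833 and 1.04 with DMSO (4.61 ± 0.25). TAL1, a partner of GATA1, had 17.6, 17.1 and 22.7 with the combination and 0.161, 0.304 and 0.225 with DMSO (4.03 ± 0.17). All combination values of these factors lay above all DMSO values. For GATA1 and TAL1, below 1 in every DMSO library, the filter required this, so it is no added result. HEMGN, an erythroid nuclear protein under GATA1 control, rose by 8.48 ± 0.11, the erythropoietin receptor gene EPOR by 2.77 ± 0.18, and the repressor GFI1B by 2.98 ± 0.18. GATA2, which acts in earlier progenitors, rose by 0.90 ± 0.15, a call that ended in the FPKM as deposited (0.31, limma adjusted p = 0.1). LMO2, a bridging protein of the GATA1 complex, and IKZF1, a lymphoid and stem cell factor, fell (-1.08 ± 0.19 for LMO2 and -0.68 ± 0.15 for IKZF1). Of 18 erythroid factors, all tested, 13 rose and 2 fell (median 1.38; 10 and 5 as deposited), 5 of them tested only through the combination libraries, and 8 rose with 1 combination library left out.

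GATA1 binds the letters GATA with short flanks, searched here on both strands as the hexamer AGATAA, its variant ending in G (AGATAG), and the same pair starting with T (TGATAA as well as TGATAG). Promoters of 2 raised erythroid genes are shown because they hold that sequence, written 5′ to 3′ in the direction of the gene from 250 bases before to 50 bases after the start of transcription in RefSeq on GRCh38.p14, with each match on either strand in capitals. ALAS2 lies on chrX:55030928-55031227 (minus strand) and EPB42 on chr15:43220969-43221268 (minus strand).
ALAS2: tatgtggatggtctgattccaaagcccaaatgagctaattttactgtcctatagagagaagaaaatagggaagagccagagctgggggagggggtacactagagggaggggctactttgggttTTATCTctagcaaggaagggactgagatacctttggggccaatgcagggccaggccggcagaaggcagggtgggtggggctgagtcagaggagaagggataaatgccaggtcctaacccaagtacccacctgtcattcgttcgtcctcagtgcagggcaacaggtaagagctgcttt
EPB42: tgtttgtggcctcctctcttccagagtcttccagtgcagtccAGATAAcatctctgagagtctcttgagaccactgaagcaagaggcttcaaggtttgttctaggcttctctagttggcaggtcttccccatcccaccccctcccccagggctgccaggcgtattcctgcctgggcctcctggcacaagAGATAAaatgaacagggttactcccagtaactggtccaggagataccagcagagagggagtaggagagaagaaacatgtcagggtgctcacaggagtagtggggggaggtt
Of 27305 promoters of this length, 25.5% hold such a sequence. Of the red cell membrane and enzyme genes, 14 had a promoter in the table and 11 held it, of the erythroid factors 6 of 15, and of the haem synthesis genes 2 of 11. A high share was not particular to raised red cell genes. Megakaryocyte markers, most of them too low to be tested, held it in 5 of 7, interferon-stimulated genes in 9 of 22 and iron genes in 0 of 9. A match in these letters is a description and not a measured site of binding.

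Markers of other cells moved less and in mixed directions. Of 12 megakaryocyte markers only 3 were tested, of which ITGA2B (1.54 ± 0.30) and TUBB1, platelet tubulin (1.80 ± 0.21), rose, and the platelet genes PF4 and GP9 were at or near 0 in both groups. Granule protein genes of neutrophils rose in 13 of 18 tested members and fell in 3 (median 0.96), and as deposited rose in 9 and fell in 4. Of these 18, 2 reached 1 rescaled FPKM in the combination libraries alone. LCN2, lipocalin 2, had 81.7, 72.5 and 61.4 rescaled FPKM with the combination and 0.334, 0.491 and 0.630 with DMSO (5.61 ± 0.16), and LTF, lactoferrin, rose by 4.15 ± 0.14. MPO, myeloperoxidase of primary granules, rose by 0.83 ± 0.04, while the protease gene PRTN3 fell by 1.29 ± 0.15. The summed level of all listed granule genes was 3373 to 3585 rescaled FPKM with the combination and 2293 to 2518 with DMSO.

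Monocyte genes were divided, with 10 of 20 tested members higher and 4 lower (median 0.48), but 5 higher and 8 lower as deposited (median -0.38). Of these 20, 3 reached 1 rescaled FPKM in the combination libraries alone. S100A12 rose by 3.42 ± 0.12, while CSF1R, the receptor for macrophage growth factor, and IRF8, a monocyte factor, fell (-1.39 ± 0.15 for CSF1R and -1.86 ± 0.15 for IRF8). CD14 was below 3 rescaled FPKM and CD68 at or near 0 in both groups. Lymphoid markers summed to 41.0 to 43.9 rescaled FPKM with the combination and 66.3 to 67.3 with DMSO, with CD79B and PAX5 at or near 0. Of 5 tested lymphoid markers 1 rose and 2 fell (log2 fold changes from -1.30 to 1.28), and 1 and 3 as deposited. Among these 5, 1 was tested through the combination libraries alone. Stromal and epithelial markers summed to 15.3 to 40.5 with the combination and 12.1 to 13.3 with DMSO, with EPCAM at or near 0. Of 4 tested stromal and epithelial markers 1 rose and 0 fell, but 0 and 2 as deposited. Among these 4, 1 was tested through the combination libraries alone. COL3A1, a fibroblast collagen, had 0.293, 10.6 and 0 rescaled FPKM with the combination and 0, 0 and 0 with DMSO and did not enter the test. The part of other cells in the red cell result was not tested.

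Several genes that define myeloid cells were lower in the combination libraries. CEBPA, the factor of granulocyte and monocyte progenitors, had 17.7, 19.9 and 16.4 rescaled FPKM with the combination and 83.4, 86.6 and 90.8 with DMSO (-2.21 ± 0.10, limma adjusted p = 6.6e-06). SPI1 (PU.1), the main myeloid factor, had 76.3, 65.7 and 73.0 with the combination and 182, 175 and 183 with DMSO (-1.32 ± 0.07). CD33, a myeloid surface marker, had 8.38, 8.20 and 6.99 with the combination and 22.3, 21.1 and 21.4 with DMSO (-1.35 ± 0.12). In each of these the groups did not overlap. PTPRC, the leukocyte antigen CD45, rose by 1.65 ± 0.14, and CD34 was at or near 0 throughout. Of 14 tested identity genes 4 rose and 6 fell (median -0.12), where 23.8% of all genes rose and 27.8% fell, 2 rose without any single DMSO library, and as deposited 1 rose and 9 fell. Of 16 genes of the KMT2A-fusion programme 6 rose (3 without any single DMSO library) and 2 fell (median 0.17), but 1 rose and 6 fell as deposited (median -0.41), with the histone demethylase relative JMJD1C at 2.04 ± 0.14.

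Immediate early genes, which cells switch on within minutes of a growth or stress signal, rose in nearly all members. ARC (ENSG00000198576), known as a gene of neuronal activity, had 1462, 1351 and 1563 rescaled FPKM with the combination and 0.0162, 0.0187 and 0.0373 with DMSO, the highest fold change of the comparison among the genes that the naming rule took (10.47 ± 0.09, limma adjusted p = 8.3e-09). EGR1, a zinc finger factor, had 539.6, 480.2 and 426 with the combination and 1.98, 2.07 and 1.76 with DMSO (7.36 ± 0.11). JUN, a subunit of the AP-1 factor, had 1008, 1036 and 1132 with the combination and 4.73, 4.48 and 4.51 with DMSO (7.57 ± 0.07). These genes were abundant with the combination and low or barely detected with DMSO, without overlap. FOS, the partner of JUN, rose by 5.97 ± 0.08, FOSB by 5.77 ± 0.12, the stress factor ATF3 by 6.05 ± 0.11 and the Ras-like GTPase RASD1 by 9.35 ± 0.10. Of 30 listed genes 29 were tested, 27 rose and 1 fell (median 2.90), 10 of them tested through the combination libraries alone, and 16 or 17 rose with 1 combination library left out. The gene that fell was SRF, the factor that drives many of the others (-0.72 ± 0.17), and this call ended without DMSO replicate 3 (-0.69, limma adjusted p = 0.051).

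The EGR1 promoter is shown because it holds the CArG box, the sequence SRF binds. It lies on chr5:138465229-138465528 (plus strand, GRCh38.p14, RefSeq), with both boxes in capitals, which begin 105 and 83 bases before the start of transcription.
EGR1: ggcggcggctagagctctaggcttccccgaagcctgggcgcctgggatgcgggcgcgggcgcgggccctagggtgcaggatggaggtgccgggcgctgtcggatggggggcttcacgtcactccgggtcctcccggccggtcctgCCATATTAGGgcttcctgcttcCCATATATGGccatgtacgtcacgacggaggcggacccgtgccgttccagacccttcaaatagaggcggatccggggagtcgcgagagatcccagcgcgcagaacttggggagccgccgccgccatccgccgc
Of all 27305 promoters 1.29% hold a CArG box in this window, and 2 of the 23 immediate early genes that have a promoter in the RefSeq table. The CRE half-site TGACGT, on either strand, was found in 9 of the 23 and in 8.32% of all promoters.

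Genes under STAT5, the direct output of FLT3, did not move together. SOCS1, a feedback inhibitor of cytokine receptors, had 404, 396 and 419 rescaled FPKM with the combination and 3.20, 3.73 and 3.72 with DMSO (6.49 ± 0.09, limma adjusted p = 2.5e-08). CISH, another inhibitor of the same family, had 1.96, 1.22 and 4.26 with the combination and 9.25, 9.20 and 10.0 with DMSO (-1.69 ± 0.32). The 2 genes thus moved in opposite directions without overlap. SOCS3 rose by 2.47 ± 0.15 and ID1, an inhibitor of differentiation factors, by 4.50 ± 0.20, and PIM1, a survival kinase, by 0.92 ± 0.12, which did not pass as deposited (0.23, limma adjusted p = 0.13). FLT3 itself (ENSG00000122025) had 70.0, 71.0 and 77.7 with the combination and 73.1, 71.8 and 73.0 with DMSO, a difference of 0.00 ± 0.07 that did not pass (limma adjusted p = 0.97) but was -0.69 as deposited (limma adjusted p = 0.00017). Of 17 tested FLT3-STAT5 genes 7 rose and 3 fell (median 0.17), but 6 rose and 7 fell as deposited (median -0.45).

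MAPK feedback genes were split. The nuclear phosphatase gene DUSP1 had 129, 110.0 and 153 rescaled FPKM with the combination and 2.31, 2.17 and 3.13 with DMSO (5.22 ± 0.17), and DUSP2 rose by 4.85 ± 0.11. DUSP6, the phosphatase of ERK in the cytoplasm and a usual readout of ERK activity, had 6.67, 9.44 and 5.73 with the combination and 14.8, 14.1 and 14.9 with DMSO (-0.94 ± 0.18, limma adjusted p = 0.0053). DUSP4 (-2.02 ± 0.14) and SPRY2, an inhibitor of receptor signalling (-1.60 ± 0.28), fell as well. Of 13 tested members 6 rose and 5 fell (median -0.33), and 4 and 7 as deposited.

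Chemokine and NF-kB genes rose in 16 of 27 tested members and fell in 6 (2 or 3 without any single DMSO library), with a median of 1.34, where 23.8% of all genes rose and 27.8% fell. Of these 27, 4 reached 1 rescaled FPKM in the combination libraries alone, and as deposited 14 rose and 10 fell (median 0.72). CXCL8, the neutrophil attractant interleukin-8, had 687, 626 and 623 rescaled FPKM with the combination and 5.05, 4.22 and 4.29 with DMSO (6.87 ± 0.09). TNF, the inflammatory cytokine, had 1.69, 3.67 and 0.813 with the combination and 13.5, 13.0 and 12.4 with DMSO (-2.30 ± 0.33, limma adjusted p = 0.0016). The chemokine and the cytokine thus moved in opposite directions. CXCL2 rose by 6.93 ± 0.20, the NF-kB inhibitor NFKBIA by 3.34 ± 0.07 and the NF-kB subunit NFKB1 by 1.80 ± 0.11. Of 16 tested FOXO and PI3K feedback genes, which are freed when AKT is off, 10 rose and 0 fell (median 0.81), and 7 and 1 as deposited.

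**Figure D3:**
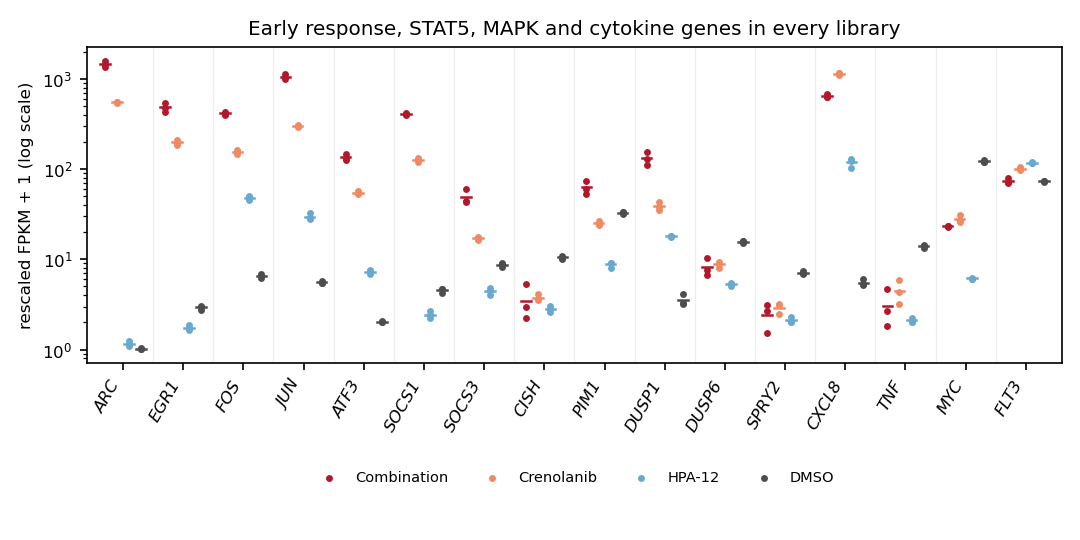
Rescaled FPKM + 1 (log scale) of 16 early response, STAT5, MAPK and cytokine genes in all 12 libraries, 1 point per library and a bar at each group mean, with the combination at the left of each gene, then crenolanib, HPA-12 and DMSO. ARC, EGR1, JUN and SOCS1 are highest with the combination, CXCL8 is highest with crenolanib, and CISH, DUSP6, SPRY2, TNF and MYC are lower with the combination than with DMSO.

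The proteins of the series title had small or variable transcript changes. HSPA5 (ENSG00000044574), which encodes the ER chaperone GRP78, had 89.1, 77.8 and 79.1 rescaled FPKM with the combination and 67.4, 62.3 and 59.9 with DMSO (0.37 ± 0.09, limma adjusted p = 0.011). The groups did not overlap on this scale, but in the FPKM as deposited the difference was -0.32 (limma adjusted p = 0.014) and with equal sums -0.18 (limma adjusted p = 0.093), so its direction rests on the scaling. It did not pass without DMSO replicate 3 (0.33, limma adjusted p = 0.054) or with weights by group, at the same fold change (limma adjusted p = 0.096). ATF6 (ENSG00000118217), the ER stress sensor, had 3.77, 7.23 and 1.91 with the combination and 3.32, 3.44 and 3.23 with DMSO (0.17 ± 0.36, limma adjusted p = 0.73). DDIT3 (CHOP, ENSG00000175197) had 3.25, 8.66 and 1.88 with the combination and 1.37, 1.5 and 2.31 with DMSO (0.86 ± 0.44, limma adjusted p = 0.14). The groups of ATF6 and of DDIT3 overlapped, and neither passed. Without combination replicate 3, the lowest, DDIT3 passed at 1.25 (limma adjusted p = 0.045). XBP1, the factor spliced by IRE1, had 27.1, 40.8 and 51.2 with the combination and 48.9, 45.6 and 44.5 with DMSO (-0.26 ± 0.22, limma adjusted p = 0.34), and passed as lower in the FPKM as deposited (-0.95, limma adjusted p = 0.0065) and with equal sums (-0.81, limma adjusted p = 0.014).

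Of 17 tested ER chaperone genes 4 were higher and 5 lower (median -0.10), close to 23.8% and 27.8% of all genes. As deposited 0 were higher and 13 lower (median -0.78), and with equal sums 1 and 11 (median -0.64). CALR, calreticulin, a calcium-binding lectin chaperone, had 186, 149 and 189.7 rescaled FPKM with the combination and 513, 437 and 451 with DMSO (-1.41 ± 0.11, limma adjusted p = 0.00011). HSP90B1 (GRP94), the HSP90 of the ER, had 21.2, 19.5 and 16.9 with the combination and 11.3, 11.0 and 10.5 with DMSO (0.76 ± 0.12). HYOU1 (-1.49 ± 0.11), the disulfide isomerase genes P4HB (-1.31 ± 0.07) and PDIA4 (-1.29 ± 0.18) and the prolyl isomerase gene PPIB (-1.5 ± 0.14) fell. The co-chaperones DNAJC3 and DNAJB9 rose by 0.94 ± 0.12 and 1.02 ± 0.22. As deposited, HSP90B1 (0.10), DNAJC3 (0.29), DNAJB9 (0.45) and the translocon gene SEC61B (0.08) did not pass. Among 20 tested sensor and ER degradation genes SEC61B rose, 4 fell, among them EDEM1 (-0.66 ± 0.15), and 15 did not pass (median -0.32). As deposited and with equal sums 0 rose and 14 fell (median -0.94 and -0.80). Of these genes 8 fell without combination replicate 3 and 2 without any single DMSO library.

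ATF6 and its relatives act on promoters through the ER stress element, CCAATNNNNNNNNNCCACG on either strand. It is rare, in 0.0806% of all 27305 promoters (22 of them), and in 6 of the 19 ER chaperone genes with a promoter in the table. The HSPA5 promoter (chr9:125241294-125241593, minus strand, GRCh38.p14, RefSeq) is shown with its exact element in capitals, 66 bases before the start.
HSPA5: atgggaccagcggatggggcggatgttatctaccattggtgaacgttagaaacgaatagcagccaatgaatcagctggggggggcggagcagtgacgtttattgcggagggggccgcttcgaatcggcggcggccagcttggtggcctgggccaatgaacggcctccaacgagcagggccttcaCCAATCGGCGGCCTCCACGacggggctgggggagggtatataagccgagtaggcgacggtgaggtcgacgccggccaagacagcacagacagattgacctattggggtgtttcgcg
The elements of HSP90B1 and CALR are given beside it, read in the direction of the element with its fixed letters in capitals. They were chosen because the genes that hold one did not move together on the rescaled values.
HSPA5 element: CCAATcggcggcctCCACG
HSP90B1 element 194 bases before the start: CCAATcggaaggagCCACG
HSP90B1 element 89 bases before the start: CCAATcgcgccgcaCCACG
CALR element: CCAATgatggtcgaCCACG
With an element in this window, HSPA5 and HSP90B1 rose, CALR fell, CANX (0.13 ± 0.12) and CRELD2 (0.05 ± 0.14) did not pass (but were -0.55 and -0.57 as deposited, limma adjusted p = 0.0061 and 0.0078), and ERO1B was not tested. As deposited HSPA5 was lower as well (-0.32, limma adjusted p = 0.014), and HSP90B1 did not pass (0.10, limma adjusted p = 0.49), so the split rests on the scaling. CANX passed as higher without combination replicate 3 (0.25, limma adjusted p = 0.033).

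**Figure D4:**
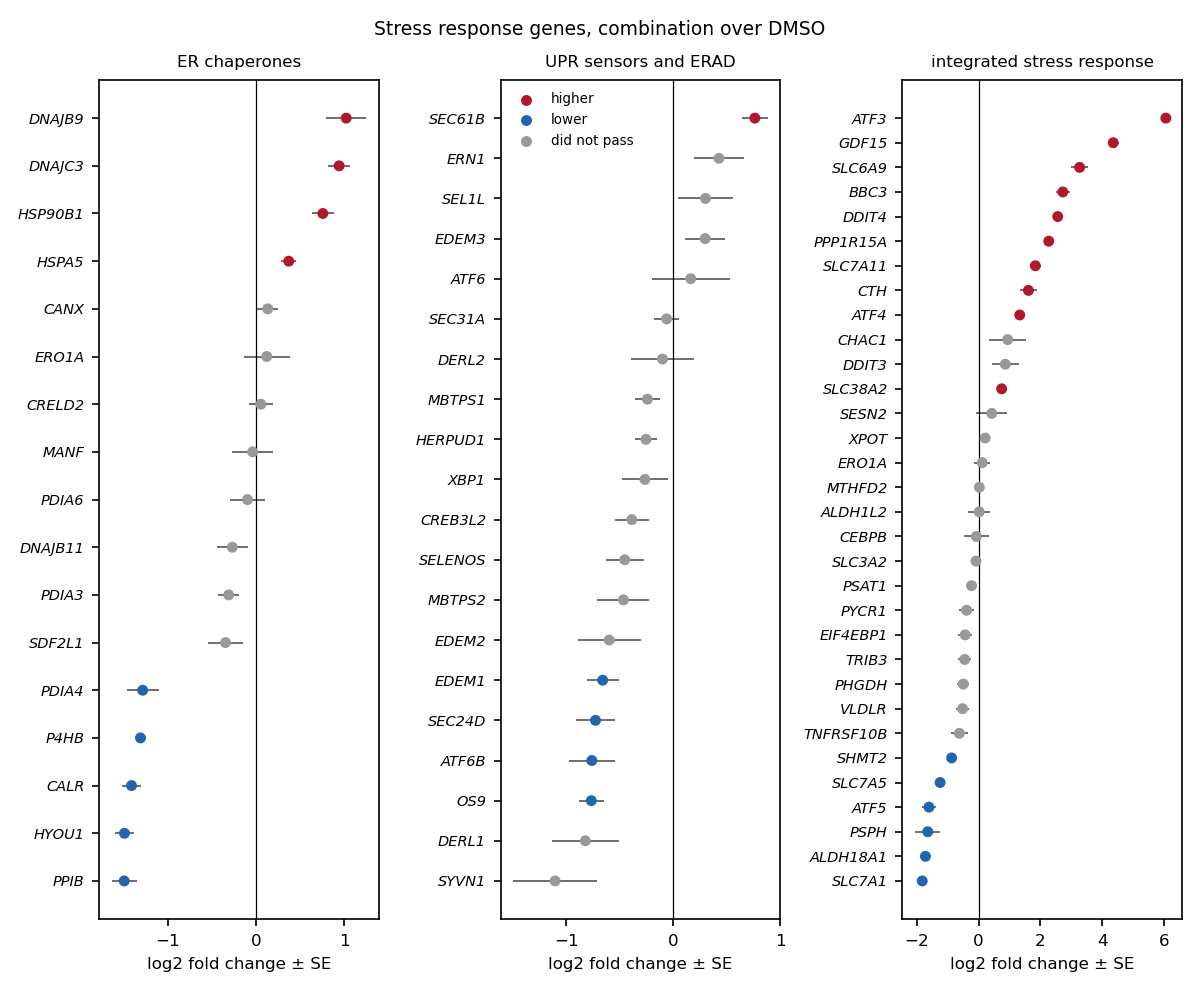
Log2 fold changes of combination over DMSO (rescaled FPKM + 1 scale, points, with bars for the standard error) for tested ER chaperone, unfolded protein response and integrated stress response genes, 1 row per gene, coloured by limma adjusted p under 0.05. ER chaperones run from PPIB at -1.5 to DNAJB9 at 1.02, and ATF3 at 6.05 and GDF15 at 4.35 lead the integrated stress response.

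The integrated stress response halts general translation and raises ATF4, which then switches on amino acid and redox genes. ATF4 (ENSG00000128272) had 195, 177 and 144 rescaled FPKM with the combination and 67.1, 65.6 and 68.8 with DMSO (1.33 ± 0.11, limma adjusted p = 0.00017). PPP1R15A (GADD34), which ends the halt, had 176, 143 and 166 with the combination and 34.0, 32.6 and 31.4 with DMSO (2.27 ± 0.09). GDF15, a stress hormone, had 42.7, 41.5 and 50.5 with the combination and 1.69, 0.886 and 1.2 with DMSO (4.35 ± 0.17). All of these were without overlap. DDIT4, an inhibitor of mTOR signalling, rose by 2.56 ± 0.09. Amino acid genes that ATF4 is known to raise were split. The cystine transporter gene SLC7A11 rose by 1.84 ± 0.18, while SLC7A5, which carries leucine (-1.24 ± 0.07), and the proline enzyme gene ALDH18A1 (-1.72 ± 0.10) fell. CHAC1 (0.94 ± 0.59, limma adjusted p = 0.23) and TRIB3 (-0.45 ± 0.21, limma adjusted p = 0.13) did not pass, though TRIB3 passed as lower in the FPKM as deposited (-1.01, limma adjusted p = 0.0042). Without combination replicate 2, CHAC1 passed as higher (1.64, limma adjusted p = 0.0069) and TRIB3 came to -0.59 (limma adjusted p = 0.05). Of 32 tested members 10 rose and 6 fell (median 0.03), 11 fell without combination replicate 3, and as deposited 9 rose and 17 fell (median -0.60). Of these 32, 3 reached 1 rescaled FPKM in the combination libraries alone. Of 20 aminoacyl-tRNA synthetase genes 3 rose and 6 fell, near the shares of all genes (23.8% and 27.8%), but 0 rose and 16 fell as deposited and with equal sums (median -0.15, against -0.81 and -0.68). Of 22 heat shock chaperone genes 6 rose and 10 fell, and 4 and 14 as deposited.

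The counts for the pathway on which HPA-12 acts depended on the scaling. CERT1 (ENSG00000113163), which encodes CERT, had 3.59, 4.04 and 2.05 rescaled FPKM with the combination and 1.22, 1.26 and 1.21 with DMSO (0.89 ± 0.23, limma adjusted p = 0.017). It was higher in 3 of 3 combination libraries, but did not pass as deposited (0.43, limma adjusted p = 0.12), with equal sums (0.53, limma adjusted p = 0.076) or without any single DMSO library (limma adjusted p = 0.067 to 0.071). SGMS1, the Golgi enzyme that turns ceramide into sphingomyelin, had 7.31, 4.79 and 5.01 with the combination and 0.611, 0.610 and 0.765 with DMSO (1.99 ± 0.20, limma adjusted p = 0.00031). UGCG, which makes glucosylceramide, had 41.9, 47.6 and 47.6 with the combination and 49.7, 48.0 and 46.2 with DMSO and did not pass (-0.07 ± 0.09, limma adjusted p = 0.52), but passed as lower in the FPKM as deposited (-0.76, limma adjusted p = 0.00029) and with equal sums (-0.62, limma adjusted p = 0.00089). OSBP, a sterol carrier at the same membrane contacts, fell by 0.94 ± 0.12. Of 18 tested genes of ceramide synthesis and transport 2 rose and 4 fell, and 1 fell without any single DMSO library, but 11 fell as deposited and with equal sums. Of 17 of ceramide breakdown and sphingosine phosphate 1 rose and 5 fell, and 1 or 2 fell without any single DMSO library, but 10 fell as deposited and 9 with equal sums.

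MYC, the growth factor-induced regulator of ribosome production, was among the most lowered genes. MYC (ENSG00000136997) had 21.8, 22.1 and 22.7 rescaled FPKM with the combination and 124, 120.0 and 119 with DMSO (-2.40 ± 0.07, limma adjusted p = 8.9e-07). Its antagonist MXI1 rose by 1.68 ± 0.15. Of 11 tested genes of the MYC network 2 rose and 6 fell (median -0.60), and 2 and 9 as deposited (median -1.18). Nucleolar genes that assemble ribosomes fell in 22 of 39 tested members and rose in 4 (median -0.78), where 27.8% of all genes fell, and fell in 33 and rose in 1 as deposited. NOP14, needed for the small subunit, had 4.05, 4.01 and 3.6 with the combination and 25.1, 24.8 and 26.3 with DMSO (-2.43 ± 0.11). RRS1, needed for the large subunit, had 1.48, 6.15 and 8.09 with the combination and 31.7, 29.9 and 27.8 with DMSO (-2.50 ± 0.46). Both were without overlap, as was POLR1A, the large subunit of RNA polymerase I (-1.84 ± 0.15). WDR74 went the other way, with 81.8, 103 and 89.9 with the combination and 11.2, 11.1 and 11.7 with DMSO (2.90 ± 0.11). NPM1 rose by 0.43 ± 0.07 on the rescaled values but was -0.26 as deposited (limma adjusted p = 0.013).

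Genes of the ribosome itself rose almost throughout. Of 43 cytosolic ribosomal protein genes, all tested, 42 rose and 0 fell (median 1.42). As deposited 38 rose and 2 fell (median 0.72), and with equal sums 40 and 1 (median 0.86). RPS12 had 2562, 2277 and 2393 rescaled FPKM with the combination and 369, 367 and 433 with DMSO (2.63 ± 0.08). RPS6, the target of S6 kinase, had 1527, 1493 and 1493 with the combination and 303, 289 and 318 with DMSO (2.31 ± 0.05). RPS23 was the exception, at -0.03 ± 0.12, and passed as lower in the FPKM as deposited (-0.70, limma adjusted p = 0.0018) and with equal sums (-0.56, limma adjusted p = 0.005). These short, abundant transcripts have many processed copies in the genome, and how the counting treated them is not given in the sources used here. Mitochondrial ribosomal protein genes had 1 of 41 tested members higher and 15 lower (median -0.54), 9 without DMSO replicate 2 or 3, and 32 as deposited (median -1.19).

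All 13 mitochondrially encoded genes rose (median 3.34), from MT-ND4L at 2.34 ± 0.11 to MT-ND2 at 4.29 ± 0.06. MT-CO1, a core subunit of cytochrome oxidase, had 75182, 76115 and 76907 rescaled FPKM with the combination and 12105, 11395 and 11424 with DMSO (2.71 ± 0.03). Of 42 tested nuclear genes of oxidative phosphorylation 10 rose and 12 fell (median -0.03), close to the 23.8% and 27.8% of all genes, but as deposited 4 rose and 28 fell (median -0.74) and with equal sums 4 and 25 (median -0.60). They ranged on the rescaled values over both signs, with ATP5F1E, a small ATP synthase subunit, at 2.76 ± 0.14 and UQCRC1 of complex III at -1.16 ± 0.10. Of these genes 6 rose without DMSO replicate 1 or 2. Of 21 genes that maintain mitochondrial DNA, transcription and import 0 rose and 9 fell (median -0.64), against 27.8% of all genes lower. Without any single DMSO library 4 or 5 fell, and 20 as deposited (median -1.23) and 16 with equal sums (median -1.13). Those that fell include the mitochondrial RNA polymerase POLRMT (-1.73 ± 0.23), the DNA helicase TWNK (-1.94 ± 0.15) and the import channel TOMM40 (-2.18 ± 0.12). The estimated share of reads from mitochondrial genes was 33.2% ± 0.420 with the combination and 5.93% ± 0.141 with DMSO (SD, n = 3 each).

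Several genes that stop the cell cycle rose. GADD45B, a stress sensor gene, had 1537, 1373 and 1369 rescaled FPKM with the combination and 13.6, 11.7 and 13.6 with DMSO (6.67 ± 0.08). CDKN1A (p21), the inhibitor of cyclin-dependent kinases, had 67.7, 67.2 and 82.5 with the combination and 3.46, 3.12 and 2.76 with DMSO (4.16 ± 0.13, limma adjusted p = 1.4e-06). CDKN1C (p57) had 148, 138 and 138 with the combination and 3.94, 4.31 and 4.30 with DMSO (4.78 ± 0.09). None of these overlapped between groups. GADD45G rose by 7.91 ± 0.13 and GADD45A by 4.13 ± 0.14, and of 20 growth arrest genes, all tested, 13 rose, 1 fell and 6 did not pass (median 1.11), where 23.8% of all genes rose. Of the 20, 3 reached 1 rescaled FPKM in the combination libraries alone, and as deposited 10 rose and 4 fell (median 0.47).

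Mitosis genes rose in 17 of 31 tested members, with PLK1 the only one lower (-0.87 ± 0.13) and a median of 0.60, but 8 rose and 7 fell as deposited (median -0.02). The proliferation marker MKI67 had 16.5, 21.5 and 22.9 rescaled FPKM with the combination and 4.91, 7.0 and 6.25 with DMSO (1.59 ± 0.18), and TOP2A rose by 1.46 ± 0.11. Of 35 DNA replication genes 7 were higher, RRM2 among them (1.77 ± 0.19), and 9 lower (5 without any single DMSO library), the helicase subunit MCM2 among them (-1.71 ± 0.23). These counts are near 23.8% and 27.8% of all genes, and as deposited 2 were higher and 20 lower (median -0.64). Replication-dependent histone genes rose in 19 of 19 tested members (median 4.84), 8 of them tested through the combination libraries alone and 11 raised with 1 combination library left out, with H1-4 at 6.91 ± 0.15 and H4C3 at 6.81 ± 0.17. Histone genes have near-identical copies and most of their transcripts lack a poly(A) tail, so single values are uncertain and depend on how RNA was selected, which is not given in the sources used here.

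Cell death genes of the BCL2 family changed on both sides. PMAIP1 (NOXA), which promotes death, had 73.1, 76.4 and 107 rescaled FPKM with the combination and 1.64, 1.49 and 1.43 with DMSO (5.08 ± 0.17), and BBC3 (PUMA) rose by 2.72 ± 0.22. BCL2A1, which blocks death, had 45.8, 36.1 and 78.4 with the combination and 0.584, 1.18 and 1.35 with DMSO (4.68 ± 0.31), and MCL1 rose by 1.46 ± 0.07. BCL2 (-1.03 ± 0.20) and the pore former BAK1 (-1.70 ± 0.29) fell. Of 16 tested members 7 rose and 6 fell (median -0.11), and 7 and 9 as deposited.

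Beside MYC and the ribosome genes, the most lowered genes were of several kinds. SIGLEC12, a sialic acid-binding receptor, had 3.38, 3.47 and 0.466 rescaled FPKM with the combination and 33.0, 30.2 and 33.3 with DMSO (-3.44 ± 0.43, limma adjusted p = 0.00083). THBD, thrombomodulin, had 5.53, 9.87 and 7.70 with the combination and 49.7, 47.4 and 48.7 with DMSO (-2.54 ± 0.19). TRIP6, an adaptor of the actin skeleton, had 8.53, 5.11 and 6.41 with the combination and 50.5, 50.6 and 49.5 with DMSO (-2.76 ± 0.17). These did not overlap between groups, which the rule that named them required. The neurotensin receptor NTSR1 (-2.95 ± 0.49), the nucleotide receptor P2RY2 (-2.48 ± 0.23), the interleukin-1 antagonist IL1RN (-2.47 ± 0.16), TIFAB (-2.42 ± 0.14), the phosphatase PGAM5 (-2.45 ± 0.40), the hydroxylase RIOX1 (-2.47 ± 0.33) and LENG1 (-2.71 ± 0.46) fell too. ENDOG, a mitochondrial nuclease, had 0, 0.430 and 9.77 with the combination and 13.2, 13.7 and 15.4 with DMSO (-2.60 ± 0.84, limma adjusted p = 0.038), a call that ended without any of 5 single libraries (limma adjusted p = 0.089 to 0.12), with a pseudocount of 0.1 (limma adjusted p = 0.068) and with no filter (limma adjusted p = 0.085). GAR1, of the telomerase and snoRNA complexes (-2.52 ± 0.75, limma adjusted p = 0.029), lost its call without combination replicate 1 or any single DMSO library (limma adjusted p = 0.054 to 0.076), with a pseudocount of 0.1 (limma adjusted p = 0.097) and with no filter (limma adjusted p = 0.068).

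Except for MHC class II, the metabolic and immune lists held genes that rose and genes that fell on the rescaled values, as did all genes tested (23.8% and 27.8%). Glycolysis genes fell in 13 of 22 tested members and rose in 7 (median -0.56), 2 of the 22 tested through the combination libraries alone. GAPDH, the glycolytic dehydrogenase often used as a standard, was at -0.43 ± 0.07. The other common standard, the actin gene ACTB, fell by 1.46 ± 0.05. Proteasome genes fell in 13 of 31 and rose in 4 (1 or 2 without any single DMSO library), with a median of -0.30, and as deposited fell in 23 and rose in 0. NRF2 pathway genes rose in 7 of 16 and fell in 8, and 6 and 9 as deposited. Cholesterol synthesis genes rose in 5 of 23 and fell in 5 (3 without any single DMSO library), near the shares of all genes, but rose in 3 and fell in 14 as deposited. Fatty acid and LXR genes rose in 5 of 18 (3 without any single DMSO library or combination replicate 1 or 2) and fell in 6, but in 3 and 11 as deposited. Of these 18, 2 were tested through the combination libraries alone. Antigen presentation was divided, with 5 of 12 tested genes of MHC class I higher and 2 lower (median 0.54; 3 and 5, median -0.17, as deposited), and 0 of 8 of class II higher and 4 lower (median -0.79; 0 and 7 as deposited). Interferon-stimulated genes rose in 8 of 19 and fell in 3 (median 0.65; 4 and 5, median -0.07, as deposited), with 4 higher when 1 combination library was left out and 5 without DMSO replicate 2 or 3. Of these 19, 4 reached 1 rescaled FPKM in the combination libraries alone and so could only be higher. Lysosome and autophagy genes rose in 13 of 32 and fell in 6 (median 0.10), but rose in 6 and fell in 18 as deposited (median -0.47). Polyamine genes rose in 4 of 10 and fell in 4 (2 without combination replicate 3 or DMSO replicate 1 or 2), and in 2 and 6 as deposited. Of 11 tested G1 cyclins and kinases 2 rose and 3 fell, and 1 and 7 as deposited.

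**Figure D5:**
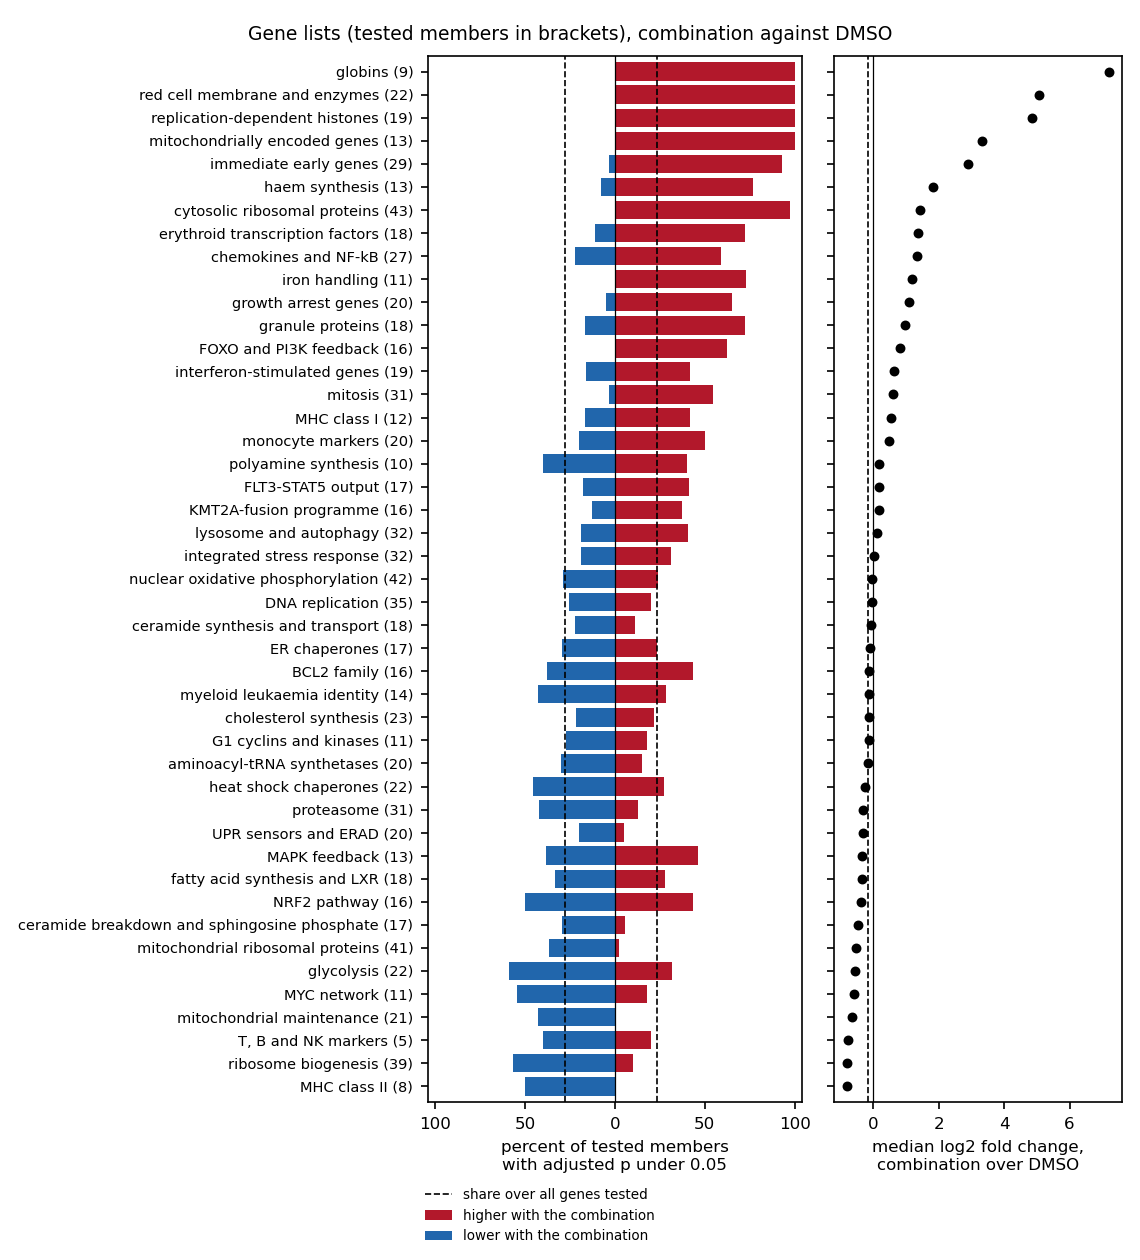
Left, percent of the tested members of each gene list shown that were higher (red, to the right) or lower (blue, to the left) with the combination than with DMSO at a limma adjusted p under 0.05, lists sorted by median, with dashed lines at 23.8% and 27.8% for all genes tested. Right, the median log2 fold change of each list, with a dashed line at -0.145 for all genes. Of the 9 globins 7, and of the 22 red cell membrane genes 15, passed the filter through the combination libraries alone, so their medians at the top describe genes that had to be higher.

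The combination was then set against each compound alone, with the same 3 combination libraries in all comparisons. Against crenolanib, 2887 of 10254 genes (28.2%) passed in limma, 1563 higher (15.2%) and 1324 lower (12.9%). In the FPKM as deposited 5860 passed, of which 12.9% were higher instead of 54.1%. Against HPA-12, 5011 of 10166 (49.3%) passed, 2421 higher (23.8%) and 2590 lower (25.5%), and as deposited 6863 passed, of which 18.8% were higher instead of 48.3%. Without any single crenolanib library 1397 to 1434 genes passed against crenolanib, and without HPA-12 replicate 1 or 3 there were 3239 and 3333 against HPA-12. Doses are not given, so it is not known whether the combination used each compound at its single-agent dose.

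Globin and red cell membrane genes were higher with the combination than with either compound, while counts of erythroid factors and iron genes depended on the scaling. HBB averaged 29793 ± 64.6 rescaled FPKM with the combination, 3102 ± 103 with crenolanib, 148 ± 7.34 with HPA-12 and 53.8 ± 3.32 with DMSO (SD, n = 3 each). Crenolanib alone thus lay between, and the combination exceeded it by 3.26 ± 0.02 log2 units (limma adjusted p = 4.5e-10). GATA1 averaged 55.3 ± 2.32 with the combination, 3.73 ± 0.0764 with crenolanib, 0.880 ± 0.226 with HPA-12 and 0.365 ± 0.0364 with DMSO (combination over crenolanib 3.57 ± 0.11, limma adjusted p = 8.9e-07). All 9 tested globin and 22 red cell membrane genes were higher with the combination than with crenolanib and than with HPA-12, where 15.2% and 23.8% of all genes were higher. Against HPA-12, 4 of the globin and 11 of the membrane genes passed the filter only by being high with the combination, and against crenolanib 1 globin gene did. As deposited, 8 globin and 21 membrane genes were higher than with crenolanib. Of 18 erythroid factors 11 were higher and 0 lower than with crenolanib, but 8 and 5 as deposited. Against HPA-12 the factors were higher in 12 and lower in 0, but in 9 and 6 as deposited. Of 11 tested iron genes 8 were higher and 1 lower than with crenolanib, but 4 and 3 as deposited. Against HPA-12 the iron counts were 8 and 0, but 6 and 3 as deposited. Mitochondrial genes held 36.0% ± 0.119 of the FPKM sum with crenolanib and 21.6% ± 0.472 with HPA-12 (SD, n = 3 each), and 13 of 13 were higher with the combination than with either. Of 43 cytosolic ribosomal protein genes 42 were higher with the combination than with crenolanib, and 42 than with HPA-12. As deposited 40 were higher and 1 lower than with crenolanib (median 0.70 instead of 1.40).

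ARC and SOCS1 were likewise highest with the combination, but their lists were mixed against crenolanib. There 15.2% of all genes were higher and 12.9% lower. Of 29 tested immediate early genes 19 were higher and 4 lower (12 and 8 as deposited). Of 17 tested FLT3-STAT5 genes 6 were higher and 2 lower (median -0.14), but 5 and 8 as deposited (median -0.65). ARC averaged 1459 ± 106 rescaled FPKM with the combination, 549 ± 10.2 with crenolanib, 0.163 ± 0.0785 with HPA-12 and 0.0241 ± 0.0115 with DMSO, so the combination exceeded crenolanib by 1.41 ± 0.05 (limma adjusted p = 2.6e-06). SOCS1 averaged 407 ± 11.6 with the combination, 126 ± 5.94 with crenolanib, 1.44 ± 0.243 with HPA-12 and 3.55 ± 0.303 with DMSO (combination over crenolanib 1.68 ± 0.05, limma adjusted p = 9.9e-07). Chemokine and NF-kB genes went the other way against crenolanib, with 4 of 26 tested members higher and 10 lower (median -0.40), 2 and 19 as deposited. CXCL8 averaged 645 ± 36.0 with the combination, 1145 ± 27.1 with crenolanib, 118 ± 14.6 with HPA-12 and 4.52 ± 0.461 with DMSO, and was lower with the combination than with crenolanib (-0.83 ± 0.05, limma adjusted p = 2e-05).

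MYC averaged 22.2 ± 0.452 rescaled FPKM with the combination, 26.8 ± 2.53 with crenolanib, 5.15 ± 0.0858 with HPA-12 and 121 ± 2.34 with DMSO. The combination did not pass against crenolanib (-0.26 ± 0.11, limma adjusted p = 0.12; as deposited -0.93, limma adjusted p = 0.00049) and was higher than HPA-12 by 1.92 ± 0.12 (limma adjusted p = 1.9e-05). Ribosome biogenesis genes were higher in 26 of 39 and lower in 1 against HPA-12 (median 0.96, as deposited 0.38). Against crenolanib 8 were higher and 0 lower (median 0.13), but as deposited 0 were higher and 17 lower (median -0.50), so the direction rests on the scaling. MPO averaged 535 ± 17.2 with the combination, 265 ± 3.79 with crenolanib, 11.9 ± 0.869 with HPA-12 and 300.0 ± 3.50 with DMSO, and exceeded HPA-12 by 5.38 ± 0.08 (limma adjusted p = 2.1e-08).

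Among the genes of the series title, HSPA5 averaged 82.0 ± 6.19 rescaled FPKM with the combination, 48.0 ± 1.02 with crenolanib, 20.1 ± 0.291 with HPA-12 and 63.2 ± 3.82 with DMSO. It was higher with the combination than with crenolanib by 0.76 ± 0.08 (limma adjusted p = 0.00061, but 0.07, limma adjusted p = 0.48, as deposited) and than with HPA-12 by 1.98 ± 0.09 (limma adjusted p = 5.1e-06). DDIT3 averaged 4.60 ± 3.59 with the combination, 2.54 ± 2.16 with crenolanib, 1.99 ± 0.309 with HPA-12 and 1.73 ± 0.507 with DMSO, and passed in neither comparison (limma adjusted p = 0.43 against crenolanib and 0.2 against HPA-12). Without combination replicate 3 it passed against HPA-12 (1.10, limma adjusted p = 0.048). ATF6 averaged 4.30 ± 2.70 with the combination, 5.05 ± 0.325 with crenolanib, 4.66 ± 0.129 with HPA-12 and 3.33 ± 0.105 with DMSO, and passed in neither (limma adjusted p = 0.56 against crenolanib and 0.64 against HPA-12). ATF4 was higher with the combination than with crenolanib by 0.65 ± 0.11 (limma adjusted p = 0.0054) and than with HPA-12 by 0.50 ± 0.11 (limma adjusted p = 0.01), but as deposited the differences were -0.04 and -0.24 and neither passed. CERT1 passed in neither (-0.12 ± 0.24, limma adjusted p = 0.75, against crenolanib and 0.32 ± 0.24, limma adjusted p = 0.29, against HPA-12). As deposited it was lower than with crenolanib (-0.66, limma adjusted p = 0.043), and without combination replicate 3 it was higher than with HPA-12 (0.54, limma adjusted p = 0.028). FLT3 was lower with the combination than with crenolanib (-0.45 ± 0.07, limma adjusted p = 0.0036) and than with HPA-12 (-0.67 ± 0.07, limma adjusted p = 0.00032).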

How the data were processed

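The authors deposited 1 table of FPKM values for 20036 genes in 12 libraries, per the file headers, in which 20011 genes were given symbols. No source used here states the aligner, genome build, annotation or RNA selection. Columns were tied to samples by name, with no column left over. Libraries were rescaled by the median ratio to the geometric mean over 10108 genes, and the crenolanib and HPA-12 libraries were scaled to the same reference. Genes with at least 1 rescaled FPKM in 3 of the 6 libraries compared were tested as log2(value + 1) with limma 3.58.1 in R 4.3.3 (trend and robust), with Benjamini-Hochberg adjustment over all genes tested and a threshold of 0.05. The procedure was tested on simulated data.

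Depth was inferred by searching for a total that turned low FPKM values (under 20 reads), multiplied by exon length from GENCODE release 29, into whole reads within 0.01. Multiples of the true total also fit, so the smallest total with a share of whole values close to the largest was taken and refined nearby. The share was 30.8% to 31.7% of such values in the combination libraries and 38.6% to 39.7% in the DMSO libraries. Since FPKM are not counts, no interval from counting is given. No 2 libraries held the same values.

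The genes named are the 15 most raised and 15 most lowered with a mean of at least 5 rescaled FPKM and groups that did not overlap, the genes of the series title and their partners, and members of 48 gene lists beside the counts of each list. The comparison, the lists and the genes were chosen with earlier results of these data known. Promoters come from RefSeq on GRCh38.p14, matched by symbol. Results of some genes are not reported here. Alternatives changed the scaling, pseudocount, filter, libraries fitted, weights and replicate block, and those for genes named against the single compounds were chosen after seeing the data.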

Additional observations from a re-analysis of the deposited data

How the results depend on the processing

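Scaling moved the balance of higher and lower genes, and leaving out a control library lowered the number of genes that passed. As deposited, 1327 genes were higher and 5470 lower with the combination than with DMSO, and with equal FPKM sums 1485 and 4919. Against crenolanib, 5860 genes passed as deposited, 5786 with equal sums and 4875 with all 12 libraries in the fit. At a mean of at least 5 rescaled FPKM, where fewer genes were tested, 1418 were higher than with DMSO. Leaving out 1 library at a time gave 3438 to 5130 genes against DMSO (1745 to 2101 higher and 1686 to 3048 lower), 1397 to 3330 against crenolanib and 3239 to 5053 against HPA-12. The highest losses came without a control library, and the cause was not tested. The main fit takes 1 spread per gene for both groups, although the combination libraries were less alike than the DMSO libraries. With weights by group 5162 genes passed against DMSO, 2255 higher and 2907 lower, and 4744 were shared with the main fit. Beside scaling and left-out libraries, calls of named genes ended with weights by group for HSPA5, and with a pseudocount of 0.1 or no filter for ENDOG and GAR1. Of the median log2 fold changes of the 48 lists, 9 changed sign under another scaling.

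Values that reversed did so only in the FPKM as deposited and with equal sums. In that order, against DMSO these were -0.32 and -0.18 for HSPA5, -0.69 and -0.55 for FLT3, -0.55 and -0.41 for CANX, -0.57 and -0.45 for CRELD2, and -0.26 and -0.12 for NPM1. For ATF4 they were -0.042 and -0.032 against crenolanib and -0.24 and -0.21 against HPA-12, and for HMOX1 -0.088 and -0.06 against HPA-12. A scaling divides each library by 1 factor shared by all genes, so changing it moves all genes well above the added 1 by about the same amount. The median ratio factors were 0.797 to 0.804 in the combination libraries and 1.292 to 1.316 in the DMSO libraries. Against DMSO the median log2 fold change over all genes moved from -0.145 to -0.707 and -0.595. Which scaling is nearer to the RNA of the cells was not tested.

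Pairing by replicate number was not detected: deviations of same-numbered combination and DMSO libraries correlated at 0.005, 0.027 and 0.011. Those of differently numbered libraries correlated at -0.024 to 0.013. The combination libraries vary too much for these values to decide whether libraries were paired. With the replicate block 4762 genes passed against DMSO, 2416 against crenolanib and 4721 against HPA-12, and no call of a named gene changed. Low depth limits low genes of the combination libraries.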

Other observations

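Chaperones of the cytosol changed on both sides. HSPA1A, the stress-inducible HSP70, had 176, 140.3 and 164 rescaled FPKM with the combination and 22.2, 23.3 and 22.8 with DMSO (2.75 ± 0.10), a level that is uncertain because HSPA1B is a near-identical copy. HSPA8, the constitutive HSP70, had 231, 218 and 217 with the combination and 507, 463 and 465 with DMSO (-1.10 ± 0.06). The inducible gene was thus higher and the constitutive gene lower, both without overlap. DNAJB1, an inducible partner of HSP70, rose by 1.14 ± 0.08, and HSP90AB1, the constitutive HSP90, fell by 0.84 ± 0.05.

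Enzymes of haem breakdown, redox defence and glycolysis moved in different directions. HMOX1, which breaks down haem, averaged 32.2 ± 4.72 rescaled FPKM with the combination, 106 ± 4.97 with crenolanib, 20.5 ± 1.64 with HPA-12 and 8.29 ± 0.117 with DMSO (SD, n = 3 each). It was higher with the combination than with DMSO (1.83 ± 0.13, limma adjusted p = 7.6e-05) but lower than with crenolanib (-1.69 ± 0.12, limma adjusted p = 6.8e-05). NQO1, another NRF2 target, had 5.43, 5.30 and 7.81 with the combination and 12.7, 12.6 and 12.9 with DMSO (-0.95 ± 0.16). HK2, the first enzyme of glycolysis, had 5.73, 5.82 and 9.04 with the combination and 23.4, 25.5 and 25.0 with DMSO (-1.73 ± 0.18). These lower levels did not overlap with DMSO, nor did those of PKM, pyruvate kinase, which fell by 1.61 ± 0.10.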
